A study of Mus musculus with 6 samples.

Results

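The genes described here are 10 that store, move or release iron and haem, namely Fth1, Ftl1, Hmox1, Tfrc, Slc40a1, Slc11a1, Slc11a2, Cp, Trf and Hp, taken by gene symbol from the 52999 symbols in the tables. All 10 were present and all 10 passed the filter on low counts, which 18396 symbols passed. The tissue was left sciatic nerve that had been severed at mid-thigh (axotomy), taken 24 h later from the proximal side, where axons still reach the cell bodies in the dorsal root ganglia. The mice were male and female C57BL/6 animals aged 6 to 8 weeks, and every animal had been operated on. The comparison asks how males and females differ in mRNA of the cut nerve. There were 3 male and 3 female libraries, each made from the pooled nerves of 2 mice, so p-values measure the spread between pools. Libraries from sham-operated mice were not analysed here, so the values say nothing of how injury changed these genes.

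Iron enters cells bound to transferrin (Trf), which the transferrin receptor (Tfrc) takes into endosomes, and is passed on to the cytosol by the divalent metal transporter Slc11a2, or from phagosomes by Slc11a1, which macrophages and neutrophils carry. Surplus iron is stored inside a protein shell of ferritin heavy (Fth1) and light (Ftl1) chains, and leaves the cell through ferroportin (Slc40a1), helped by the ferroxidase ceruloplasmin (Cp). Haem from dying red cells is cleared as haemoglobin bound to haptoglobin (Hp) and opened by haem oxygenase (Hmox1), which frees its iron. Several of these mRNAs carry an iron-responsive element, a hairpin that iron regulatory proteins bind when iron is scarce. In a 5′ untranslated region (UTR) the bound protein blocks translation, and in the 3′ UTR of Tfrc it protects the mRNA from decay.

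These hairpins are shown because they set the members apart by how their mRNA is read or kept. The search asked for the loop CAGTGN, in which N is any base, between arms that form 5 base pairs (G with T allowed), with a C just 5′ of the arm, on the transcript strand only. The capitals mark the 6 loop bases and each sequence runs 5′ to 3′ as DNA in GENCODE M39 transcripts (GRCm39). Each ferritin gene and Slc40a1 had 1 match in the 5′ UTR, and Tfrc had 4 in the 3′ UTR.
Fth1, chr19:9960097-9960123, plus strand: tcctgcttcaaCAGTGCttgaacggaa
Ftl1, chr7:45109204-45109230, minus strand: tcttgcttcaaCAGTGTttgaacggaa
Slc40a1, chr1:45964626-45964652, minus strand: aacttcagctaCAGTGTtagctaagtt
Tfrc, chr16:32450038-32450064, plus strand: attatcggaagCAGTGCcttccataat
Tfrc, chr16:32450417-32450443, plus strand: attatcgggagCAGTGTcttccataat
Tfrc, chr16:32450482-32450508, plus strand: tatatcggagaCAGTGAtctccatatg
Tfrc, chr16:32450529-32450555, plus strand: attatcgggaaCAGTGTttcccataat
Slc11a2 matched when 1 unpaired base was allowed in the 3′ arm, in the 3′ UTR of the transcript Slc11a2-205 and not in that of Slc11a2-201.
Slc11a2, chr15:100293034-100293061, minus strand: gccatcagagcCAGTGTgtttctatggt
Over the canonical transcripts of protein-coding genes, 0.116% of 5′ UTRs and 0.601% of 3′ UTRs held such a hairpin, and the form with 1 unpaired base was in 0.189% of 5′ UTRs and 1.14% of 3′ UTRs. A match is a description of the letters, and no binding was measured. Hmox1, Slc11a1, Cp, Trf and Hp had no match in either UTR, which says only that these letters are not there.

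The total of estimated counts was 51936195 to 69848769 in male libraries and 49158283 to 64802091 in female libraries. Genes of the Schwann cell, the cell that ensheathes peripheral axons, were abundant in all libraries. The 9 listed genes summed to between 52435 and 62187 CPM (counts scaled to the normalized library size) in males and between 22459 and 29897 CPM in females. Of the 9, 5 passed the edgeR test higher in males, where 3.84% of all genes tested did. Red blood cell genes summed to 3289 to 10395 CPM in males and 2985 to 15967 CPM in females. Macrophage genes came to 917 to 1350 CPM in males and 1058 to 2114 CPM in females and monocyte genes to 335 to 662 CPM in males and 477 to 691 CPM in females. Fibroblast genes came to 5870 to 7747 CPM in males and 5002 to 6662 CPM in females and endothelial genes to 263 to 284 CPM in males and 252 to 362 CPM in females. Skeletal muscle genes were uneven within both sexes, at 3.42 to 579.96 CPM in males and 30.3 to 501.9 CPM in females. Hepatocyte genes stayed at or below 1.56 CPM in males and 0.781 CPM in females. None of the listed marker genes was at 0 in all 6 libraries. These are bulk tissue libraries, in which fewer cells of a type and less RNA per cell cannot be told apart.

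In levels per length (TPM, counts divided by length and brought to 1 common library total), the ferritin mRNAs stood far above the other members. Together, Fth1 and Ftl1 made up 1.59%, 1.83% and 1.62% of all TPM in males 1, 2 and 3, and 1.23%, 1.30% and 1.42% in females 1, 2 and 3, with no overlap between the sexes. Fth1 ranked between 4 and 8 among all symbols in each library. By mean TPM over the 6 libraries the order was Fth1 (10838), Ftl1 (4165), Hmox1 (254), Hp (214), Trf (208), Cp (190), Tfrc (50.2), Slc11a1 (42.3), Slc11a2 (22.9) and Slc40a1 (4.68). The steps from Fth1 to Ftl1, from Ftl1 to Hmox1, from Cp to Tfrc and from Slc11a2 to Slc40a1 held in all 6 libraries with ranges that did not overlap. Hmox1, Hp, Trf and Cp could not be ordered, since each of these neighbours kept its place in only 2 or 3 of 6 libraries. Tfrc exceeded Slc11a1 in 4 of 6 libraries, and Slc11a1 exceeded Slc11a2 in all 6 although their ranges overlapped.

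**Figure D1:**
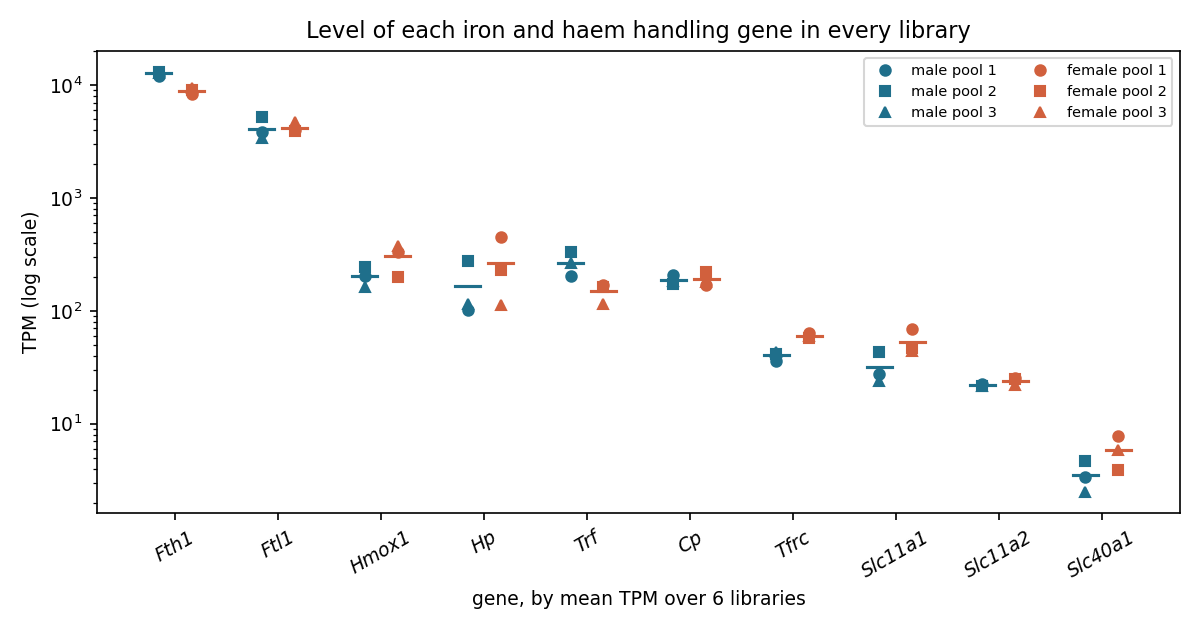
Level of each of the 10 genes in TPM (log axis) in the 3 male pools (blue, left) and the 3 female pools (orange, right), with bars at the group means and genes in order of mean TPM. Fth1 and Ftl1 lie at or above 3381 TPM in every library, and Slc40a1 lies between 2.48 and 7.78 TPM.

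Across the sexes, none of the 10 genes passed an adjusted p under 0.1 in the quasi-likelihood test of edgeR, where 5.30% of all genes tested did (3.84% higher and 1.46% lower in males). At an unadjusted p under 0.05, 2 of the 10 passed (Fth1 and Tfrc), against 20.7% of all genes. The Wald test of DESeq2, the tool the study used, called the same 2 genes, where it called 11.5% of all genes, and limma-voom called 0 of the 10, where it called 4.62%. The CPM ranges of the sexes did not overlap for 2 of the 10 genes, again Fth1 and Tfrc, against 25.5% of all genes, and the TPM ranges for 4 of the 10 (Fth1, Tfrc, Trf and Slc11a1), against 21.0%. The log2 fold change, male minus female, was above 0 for 2 members and below 0 for 8, with a median of -0.35 over the 10 and -0.03 over all genes tested. The median is a description of 10 genes chosen for their function, with earlier results of these data known, and has no test.

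**Figure D2:**
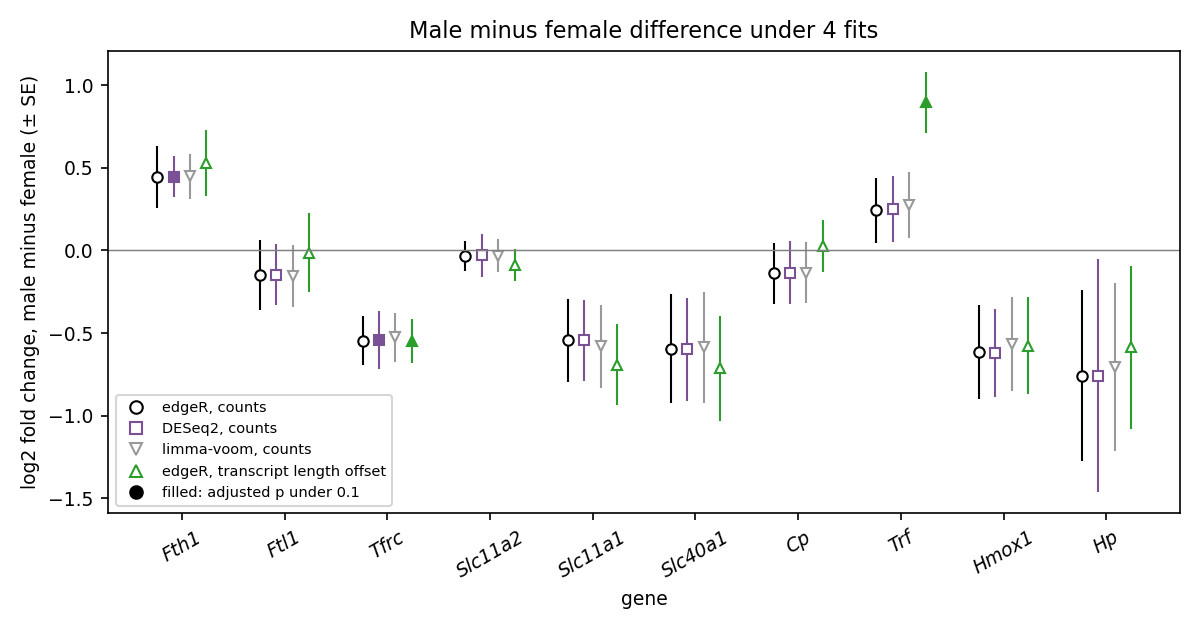
Log2 fold change, male minus female, with its SE, for each gene under 4 fits (3 male and 3 female libraries), with filled symbols where the adjusted p was under 0.1. Fth1 is filled under DESeq2, Tfrc under DESeq2 and with the transcript length offset, and Trf with the transcript length offset.

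The ferritin heavy chain Fth1, the ferroxidase subunit of the shell, was at 12135, 13142 and 12858 TPM in males 1, 2 and 3 and at 8332, 9125 and 9437 TPM in females 1, 2 and 3. Every male library was above every female library, also in CPM, where males averaged 6342 ± 178 and females 4662 ± 346 (SD, n = 3 each). The log2 fold change was 0.44 ± 0.19 (SE), with an adjusted p of 0.237 by edgeR, 0.136 by limma-voom and 0.00677 by DESeq2. The transcript Fth1-201, which carries the hairpin shown above, took 99.2% to 99.6% of the gene's TPM in all libraries, and Fth1 lies at chr19:9957911-9962462 on the plus strand.

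The light chain Ftl1, which helps form the iron core, did not follow the same order. It was at 3806, 5169 and 3381 TPM in males 1, 2 and 3 and at 3989, 3901 and 4745 TPM in females 1, 2 and 3. The highest and the lowest library were both male, and the log2 fold change was -0.15 ± 0.21 with an adjusted p of 0.731 by edgeR. It was -0.018 without male library 3, -0.027 without female library 3, -0.24 without female library 2 and -0.28 without male library 2. Ftl1 lies at chr7:45107367-45109308 on the minus strand, and Ftl1-201 took 99.1% to 99.4% of its TPM. The copies whose symbols name them as ferritin pseudogenes, 3 for each gene, took at most 0.00397% of the combined counts for Fth1 and 0.135% for Ftl1. Copies under other symbols were not looked for.

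The ratio of heavy to light chain mRNA within a library was higher in every male than in every female library. Fth1 over Ftl1 in TPM was 3.19, 2.54 and 3.80 in males 1, 2 and 3 and 2.09, 2.34 and 1.99 in females 1, 2 and 3. The groups did not overlap, with means of 3.18 ± 0.63 in males and 2.14 ± 0.18 in females (SD, n = 3 each). The difference in log2 ratio was 0.56, with p = 0.1 by a two-sided exact permutation test, the smallest p that 3 against 3 libraries allow. Taken from estimated counts the difference in log2 ratio was 0.60, with the same p.

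**Figure D3:**
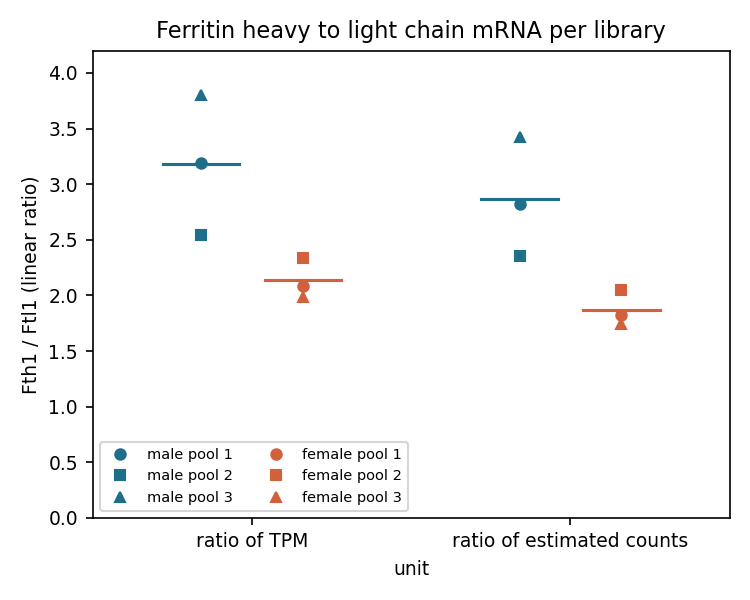
Fth1 over Ftl1 in each of the 3 male pools (blue, left) and 3 female pools (orange, right), from TPM and from estimated counts, with bars at the group means and a linear axis from 0. The lowest male pool has a TPM ratio of 2.54 and the highest female pool one of 2.34.

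Among the uptake genes, Tfrc, the receptor for iron-loaded transferrin, was lower in every male library. It was at 77.6, 87.9 and 85.8 CPM in males 1, 2 and 3 and at 106, 111 and 150 CPM in females 1, 2 and 3. In TPM the values were 36.1, 41.7 and 43.0 in males and 63.3, 56.9 and 60.2 in females, again without overlap. The log2 fold change was -0.54 ± 0.15, with an adjusted p of 0.106 by edgeR, 0.118 by limma-voom and 0.0291 by DESeq2. Without female library 3, the highest in CPM but not in TPM, it was -0.37 with an adjusted p of 0.078 by edgeR.

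The Tfrc reads were divided between transcripts in a way that set female libraries 1 and 2 apart. Tfrc lies at chr16:32427556-32451612 on the plus strand. The coding transcript Tfrc-201 was at 13.9, 4.21 and 8.69 TPM in males 1, 2 and 3 and at 50.1, 42.1 and 19.9 TPM in females 1, 2 and 3. The transcript Tfrc-204, annotated as a retained intron and covering the 3′ part of the gene from chr16:32443260 to 32451608, was at 21.3, 35.6 and 33.7 TPM in males and at 5.21, 11.2 and 37.7 TPM in females. Every male library was below every female library for Tfrc-201, whereas for Tfrc-204 female library 3 was above all males. Both transcripts hold all 4 hairpins in their exons, and together they took 87.5% to 98.7% of the gene's TPM.

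Slc11a2, which moves ferrous iron out of endosomes, was the most even member. It was at 22.5, 21.5 and 21.8 TPM in males 1, 2 and 3 and at 25.4, 24.7 and 21.8 TPM in females 1, 2 and 3. The highest library was 1.18 times the lowest, and the log2 fold change of -0.03 ± 0.09 (adjusted p of 0.865 by edgeR) lay within the spread of the pools. Slc11a2 lies at chr15:100285776-100322953 on the minus strand. Its transcripts differ in the last exon, and Slc11a2-205, which carries the hairpin, took 41.0%, 41.8% and 44.2% of the gene's TPM in males and 39.2%, 39.8% and 43.6% in females. Slc11a2-201, without the hairpin, took 52.0%, 50.0% and 48.3% in males and 43.5%, 46.5% and 49.7% in females.

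Slc11a1, the phagosomal metal transporter, was at 27.3, 43.6 and 24.1 TPM in males 1, 2 and 3 and at 68.5, 46.6 and 43.7 TPM in females 1, 2 and 3. The TPM ranges met without overlap, whereas in CPM male library 2 (58.2) was above female library 2 (50.1). The coding transcript Slc11a1-201 overlapped in TPM too, at 20.7, 31.5 and 16.5 in males and 31.6, 26.6 and 28.4 in females. Slc11a1-206, not listed as coding, was at 1.31, 2.34 and 2.33 TPM in males and 13.3, 8.79 and 2.77 TPM in females. It had only 107, 67 and 25 reads in females 1, 2 and 3. The log2 fold change of the gene was -0.54 ± 0.25 with an adjusted p of 0.268 by edgeR. It was -0.33 without male library 3 and -0.81 without male library 2. The 10 macrophage genes summed to 917, 1350 and 956 CPM in males and to 2114, 1576 and 1058 CPM in females. Of these 10, 9 were below 0 in log2 fold change and did not pass the test, and the other 1 passed it, higher in males. The 9 neutrophil genes were at 547, 955 and 312 CPM in males and at 963, 358 and 1110 CPM in females, and all 7 of them that were tested were below 0 in log2 fold change. The 5 monocyte genes were at 377, 662 and 335 CPM in males and at 691, 684 and 477 CPM in females. Slc11a1 was highest in female library 1, as the macrophage and monocyte sums were. It was lowest in male library 3, as the neutrophil and monocyte sums were. The macrophage sum was lowest in male library 1, and the neutrophil sum highest in female library 3. The part of any of these cell types in the Slc11a1 values was not tested. Slc11a1 lies at chr1:74414303-74425448 on the plus strand.

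**Figure D4:**
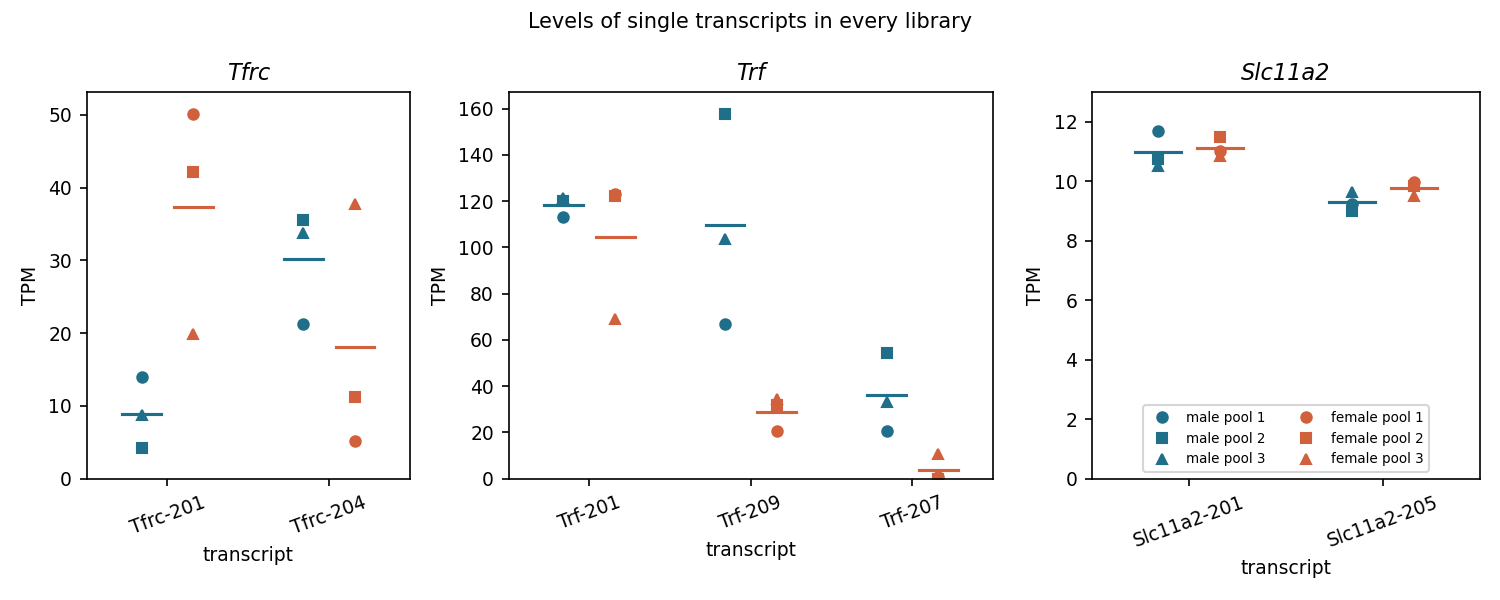
TPM of single transcripts of Tfrc, Trf and Slc11a2 in the 3 male pools (blue, left) and 3 female pools (orange, right), with bars at the group means and linear axes from 0. Tfrc-201 does not overlap between the sexes, Trf-201 does, Trf-209 and Trf-207 do not, and both Slc11a2 transcripts stay at or below 11.7 TPM in every library.

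The export genes did not pass the test. The exporter ferroportin, Slc40a1, was the lowest member, at 3.36, 4.64 and 2.48 TPM in males 1, 2 and 3 and at 7.78, 3.92 and 5.89 TPM in females 1, 2 and 3. Male library 2 was above female library 2, and the log2 fold change was -0.59 ± 0.33 with an adjusted p of 0.345 by edgeR. It was -0.38 without male library 3 and -0.87 without male library 2. Slc40a1 lies at chr1:45947211-45965683 on the minus strand.

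Ceruloplasmin, Cp, was at 210, 172 and 185 TPM in males 1, 2 and 3 and at 168, 222 and 181 TPM in females 1, 2 and 3. Female libraries were both the highest and the lowest, with a log2 fold change of -0.14 ± 0.19 (adjusted p of 0.706 by edgeR). It ran from -0.29 without male library 1 to -0.011 without male library 2. Its transcripts were divided unevenly, as for Tfrc. The short transcript Cp-213 was at 70.0, 81.2 and 76.5 TPM in males and at 58.3 TPM in female library 3, but at 0 and 3.50 TPM in females 1 and 2. Cp-203 was listed at 0 in all 3 males and in female library 3, and at 34.1 and 31.9 TPM in females 1 and 2. Cp lies at chr3:20011090-20063930 on the plus strand.

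The value of transferrin itself, Trf, depended on whether length was taken into account. In TPM it was at 204, 333 and 263 in males 1, 2 and 3 and at 169, 163 and 115 in females 1, 2 and 3, with no overlap. In CPM it was at 248, 289 and 276 in males and at 281, 244 and 162 in females, where the ranges overlapped. The count test gave a log2 fold change of 0.24 ± 0.20 (adjusted p of 0.523 by edgeR), which was 0.047 without female library 3 and 0.42 without female library 1, and the same test with the mean transcript length per library as an offset gave 0.90 ± 0.19 (adjusted p of 0.0623). The offset fit called 2 of the 10 members, Trf and Tfrc, and 5.28% of all genes.

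The transcripts of Trf show where the measures part. The coding transcript Trf-201 was at 113, 120 and 121 TPM in males and at 123, 122 and 69.1 TPM in females, so that females 1 and 2 were above every male. The retained-intron transcript Trf-209, 433 bases long, was at 67.0, 157.8 and 103.8 TPM in males and at 20.5, 31.7 and 34.6 TPM in females. The short coding transcript Trf-207 was at 20.7, 54.5 and 33.1 TPM in males and at 0.762, 0 and 10.7 TPM in females. Both short transcripts lie towards the 3′ end of the gene (chr9:103081200-103107814, minus strand), Trf-209 from chr9:103086224 to 103089205 and Trf-207 from chr9:103087767 to 103097065. Few reads fell on Trf-209, 920, 1918 and 1113 in males and 210, 331 and 470 in females, against 14948, 12828 and 11838 in males and 12083, 12628 and 9292 in females on Trf-201. Short transcripts thus added much to the summed TPM and little to the summed counts.

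The summed markers of myelinating cells, which are known to make transferrin, were higher in every male than in every female library, as Trf was in TPM but not in CPM. The 9 Schwann cell genes summed to 55958, 52435 and 62187 CPM in males 1, 2 and 3 and to 22459, 28440 and 29897 CPM in females 1, 2 and 3. Within females, the order of these sums ran opposite to that of Trf, which was lowest in female library 3. The 8 oligodendrocyte genes summed to 331, 308 and 336 CPM in males and to 211, 225 and 306 CPM in females. Most of this was Mag, which Schwann cells also make, and the other 7 genes together came to 12.5, 26.9 and 29.1 CPM in males and to 4.12, 4.43 and 3.93 CPM in females. Of the oligodendrocyte genes, 7 were tested, Mag among them and Olig2 not. Of these, 4 passed higher in males (Mog, Mobp, Olig1 and Ermn), where 3.84% of all genes did. Mog, Olig1 and Ermn lay near the floor, at or below 1.93 CPM in every library. The CPM ranges of the sexes overlapped for Mag, Opalin and Hapln2. Whether the tissue held any oligodendrocytes was not tested, nor was the part of myelinating cells in the Trf and Fth1 values. Salmon's effective length, the length after its correction for fragment size and sequence bias, also differed by library. For Tfrc-201 it was 76.5%, 86.8% and 79.3% of the full length in males and 57.9%, 68.0% and 80.7% in females, and for Fth1-201 it was 72.8%, 71.5% and 73.2% in males and 82.4%, 78.1% and 68.7% in females. For both transcripts, females 1 and 2 stood on one side of all 3 males, while female 3 lay among the males for Tfrc-201 and on the opposite side of them for Fth1-201. The part of this correction in the transcript values was not tested.

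For the breakdown of haem, Hmox1, which opens the haem ring, was at 203, 245 and 161 TPM in males 1, 2 and 3 and at 335, 202 and 377 TPM in females 1, 2 and 3. Females 1 and 3 were the highest libraries, but female 2 fell among the males. The log2 fold change was -0.62 ± 0.28 with an adjusted p of 0.268 by edgeR and 0.144 by DESeq2. It was -0.35 without female library 3 and -0.88 without female library 2. Hmox1 lies at chr8:75820241-75827217 on the plus strand.

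Haptoglobin, Hp, the plasma protein that binds free haemoglobin, varied most of all members. It was at 107, 275 and 115 CPM in males 1, 2 and 3 and at 479, 233 and 130 CPM in females 1, 2 and 3. The highest library was 4.46 times the lowest, and male library 2 exceeded females 2 and 3. The log2 fold change was -0.76 ± 0.52 with an adjusted p of 0.439 by edgeR. It was -0.13 without female library 1 and -1.30 without male library 2. Hp lies at chr8:110301759-110305804 on the minus strand.

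Marker genes of other cells moved with both of these genes, as found after the values had been seen. The 8 adipocyte genes summed to 65.2, 298.7 and 142.8 CPM in males and to 702.9, 389.5 and 96.2 CPM in females. Female library 1 was highest and male library 1 lowest, as for Hp. The 10 macrophage genes summed to 917, 1350 and 956 CPM in males and to 2114, 1576 and 1058 CPM in females. They had the same highest and lowest library, so this likeness was not particular to adipocyte genes. Fat cells are a known source of Hp, and the hepatocyte genes, the other well-known source, summed to 1.56, 0.388 and 0.39 CPM in males and to 0.781, 0.638 and 0.35 CPM in females. The 9 neutrophil genes summed to 547, 955 and 312 CPM in males and to 963, 358 and 1110 CPM in females, and placed the 6 libraries in the same order as Hmox1 did. The exporter gene Slc40a1 had this order in CPM too, so the match was not particular to Hmox1. Red blood cell genes, a source of haem, were at 6611, 3289 and 10395 CPM in males and at 10183, 2985 and 15967 CPM in females, highest in female library 3, as for Hmox1, but with male library 3, the lowest for Hmox1, in second place. The part of these cells in the Hmox1, Slc40a1 and Hp values was not tested.

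**Figure D5:**
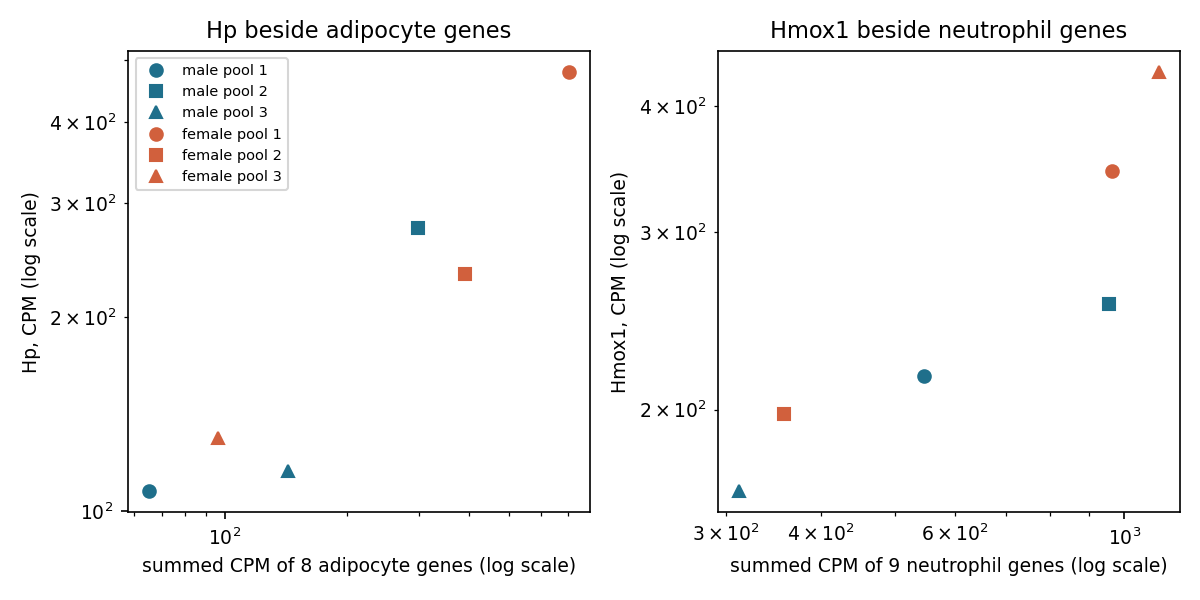
CPM of Hp against the summed CPM of 8 adipocyte genes and of Hmox1 against that of 9 neutrophil genes, on log axes, with 1 point for each of the 3 male pools (blue) and 3 female pools (orange). Female pool 1 is highest on both axes for Hp, and female pool 3 is highest on both axes for Hmox1.

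The wider pathway was read from 8 lists that hold 72 other genes, of which 66 were tested. Of these, 2 passed the test, both higher in males, and the CPM ranges of the sexes did not overlap for 18. The median log2 fold change was -0.11, and 25 genes were above 0 and 41 below. The shares were 2 of 66 called where 5.30% of all genes were, and 18 of 66 without overlap where 25.5% of all genes were.

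In iron uptake and reduction, 1 of 11 tested genes passed. This was Slc22a17, a receptor for lipocalin 2, an iron-carrying protein, at 86.0, 82.5 and 102.1 CPM in males 1, 2 and 3 and at 41.5, 52.2 and 43.8 CPM in females 1, 2 and 3. Its log2 fold change was 0.98 ± 0.13 with an adjusted p of 0.0352 by edgeR, and it passed in 12 of 15 other fits. It did not pass without male library 3 (adjusted p of 0.129) or without female library 1 (adjusted p of 0.145). Nor did it pass in edgeR with replicate number as a block (adjusted p of 0.106). The Schwann cell genes, whose sum was also higher in every male library, had a median log2 fold change of 0.97, and their part in the Slc22a17 value was not tested. The metalloreductases nearest to passing were Steap2 (log2 fold change -0.48, adjusted p of 0.183 by edgeR) and Steap4 (0.28, adjusted p of 0.244).

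In export and the hepcidin axis, 1 of 6 tested genes passed. Hfe, a membrane partner of the transferrin receptor, was at 30.7, 34.9 and 33.3 CPM in males and at 24.7, 25.5 and 21.2 CPM in females. Its log2 fold change was 0.47 ± 0.11 with an adjusted p of 0.0864 by edgeR, and it passed in 7 of 15 other fits. It did not pass with each male library left out in turn, or without female library 1 or 2 (adjusted p of 0.125 to 0.271). Nor did it pass in edgeR with scaling by library size alone (adjusted p of 0.144) or the transcript length offset (0.136). With replicate number as a block the adjusted p was 0.202. The ferroxidase Heph, at 1.69, 1.74 and 1.72 CPM in males and 3.87, 3.17 and 1.54 CPM in females, did not pass (adjusted p of 0.261), nor did B2m, the light chain that Hfe needs (log2 fold change 0.12, adjusted p of 0.758).

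None of 3 iron sensing genes and none of 5 ferritin turnover genes passed. Fbxl5, which marks iron regulatory protein 2 for destruction, had a log2 fold change of -0.26 (adjusted p of 0.218 by edgeR), and Aco1, which is iron regulatory protein 1, one of -0.21 (adjusted p of 0.270). Both were lower in CPM in every male library than in every female library, but in TPM the Aco1 ranges overlapped, since female library 3 (19.5 TPM) lay below all 3 male libraries (19.7 TPM at the lowest). Ncoa4, the receptor that sends ferritin to the lysosome, was also lower in CPM in every male library, at 136, 124 and 146 CPM in males and 162, 166 and 152 CPM in females (log2 fold change -0.24, adjusted p of 0.242). Its TPM ranges overlapped as well, since female library 3 (64.1 TPM) lay below male libraries 1 (64.5 TPM) and 3 (69.7 TPM). The iron chaperone gene Pcbp3 had a log2 fold change of 0.21 (adjusted p of 0.471). At an unadjusted p under 0.05, 1 of the 3 sensing genes and 0 of the 5 turnover genes passed, against 20.7% of all genes.

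The mitochondrial and haem lists gave 0 calls by edgeR among 12 mitochondrial iron, 9 haem synthesis, 13 haem breakdown and transport and 7 regulator genes, where 3, 2, 6 and 2 genes had an unadjusted p under 0.05. That cut was passed by 17 of the 66 genes over all 8 lists and by 20.7% of all genes tested. The iron importer of mitochondria Slc25a37 had a log2 fold change of -0.27 (adjusted p of 0.170) and the transporter Abcb8 one of 0.37 (adjusted p of 0.150). In haem synthesis, Alad, its second enzyme, had a log2 fold change of 0.34 (adjusted p of 0.116), while Alas1, its first, had one of -0.32 (adjusted p of 0.191). The CPM ranges of males and females did not overlap for either gene. In TPM they overlapped for Alas1, with male library 2 (40.6 TPM) above female library 3 (36.2 TPM), and not for Alad. The median log2 fold change was 0.07 for mitochondrial iron and -0.04 for haem synthesis.

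Among haem breakdown and transport genes, 10 of 13 were below 0 in log2 fold change, with a median of -0.24. Cd163, the macrophage receptor for haptoglobin bound to haemoglobin, was at 44.0, 54.1 and 53.2 CPM in males 1, 2 and 3 and at 149.8, 99.8 and 62.6 CPM in females 1, 2 and 3. All males were below all females, and the log2 fold change was -1.05 ± 0.28 with an adjusted p of 0.104 by edgeR. The haem transporter Slc48a1 had a log2 fold change of 0.39 (adjusted p of 0.125). The regulators nearest to passing were Hif1a, of the oxygen response (log2 fold change -0.59, adjusted p of 0.103), and Bach1, the haem-sensing repressor of Hmox1 (-0.39, adjusted p of 0.104).

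The genes whose log2 CPM was most like that of Fth1 over the 6 libraries, among 10076 protein-coding genes with a mean of at least 10 CPM, were Terf2, Tmem134 and Sgf29 (Pearson's r of 0.995 to 0.996). For Tfrc they were Myef2, Mapk8 and Fem1b (0.989 to 0.994), and for Slc11a1 Itgb1bp1, Qtrt1 and Fgr (0.995 to 0.996). With 6 libraries and so many genes such values are a description, and the libraries share depth and tissue makeup.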

How the data were processed

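Polyadenylated RNA from 6 pools of proximal sciatic nerve was sequenced as paired ends from stranded libraries. Per the labels, the authors trimmed reads with Trimmomatic 0.39 and quantified transcripts with Salmon 1.5.2. The deposited tables hold, for each transcript, an estimated count, which is not normalized and splits shared reads by a model, a TPM, and an effective length. The annotation was a GENCODE mouse release on GRCm39, and coordinates and hairpins came from GENCODE M39 on the same assembly, in which every listed transcript of the members was found by its identifier without version.

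Estimated counts and TPM were summed per symbol, and counts were rounded to whole numbers. In R 4.3.3, symbols were filtered with filterByExpr of edgeR 4.0.16, scaled by TMM and compared by the quasi-likelihood test with a single term for sex. The Benjamini-Hochberg adjustment covered all symbols tested, and an adjusted p under 0.1 was called. CPM used normalized library sizes, and the SE was the fold change divided by the square root of F. Alternatives were DESeq2 1.42.0, limma-voom (limma 3.58.1), other scaling and filters, protein-coding genes alone, an offset for transcript length, a replicate block, a threshold of 0.05, merged ferritin copies and each library left out. The pathway genes named were put through the same fits after the data had been seen. Counts were simulated for the male and female libraries (18396 genes, 200 changed), with the spread that edgeR estimated for each gene. In these, edgeR recovered 56% of 2-fold and 89% of 4-fold changes with 32 false calls. DESeq2 recovered 69% and 94% with 88 false calls, and limma-voom 57% and 88% with 31. No change below 2-fold was simulated, whereas every member was below 2-fold in the main edgeR fit, so recovery of changes of that size was not tested. No library was a copy of another of its sex, since the chi-square per degree of freedom between them was 44.8 to 133.9.

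The members and lists were chosen with earlier results of these data known. The text names all members, each called pathway gene with up to 2 others of each list by smallest p, and the 3 genes most like each of the 3 members with the smallest p.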

Additional observations from a re-analysis of the deposited data

How the results depend on the processing

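Each member had 16 alternatives, of which 15 were other fits and 1 was the same edgeR test read at a threshold of 0.05. That reading could not change direction or side, since no member had passed 0.1. Of 160 alternatives for single members, these readings included, 150 kept their direction and their side of the threshold and 7 moved past it. The other 3 changed the sign of a small difference, Slc11a2 to 0.0061 without male library 2 and 0.034 without female library 3 (-0.072 to 0.034 with each library left out), and Cp to 0.028 with the length offset. The members called numbered 1 (Tfrc) with library size alone and 1 (Tfrc) with no filter, 2 (Fth1 and Tfrc) with DESeq2, 2 (Tfrc and Trf) with the length offset, and 0 to 1 with each library left out. The log2 difference in the Fth1 to Ftl1 ratio ranged from 0.42 to 0.71 with each library left out. Its permutation p was 0.1 with any male library left out and 0.2 with any female library left out, where the smallest possible was 0.1. Over all genes, the 975 calls became 279 at an adjusted p under 0.05, 2432 with DESeq2, 1614 with no filter, and 1 to 2609 with each library left out (1 without female library 1, 7 without male library 3, 325 without female library 2, 643 without male library 1 and 2609 without female library 3), so the background shares rest on which pools were included. Among the pathway genes named, B2m turned to -0.017 without male library 2 (-0.02 to 0.28 with each library left out).

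With the replicate block, 56 genes and none of the members were called by edgeR, 1 of them (Tfrc) at an unadjusted p under 0.05. The numbers are not known to pair the pools, since the deviations of same-numbered libraries correlated at -0.04, -0.30 and -0.30, and no library correlated best with its own number.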
